A study of Homo sapiens with 15 samples.

Results

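Wnt ligands, Wnt antagonists and the AXIN genes were followed in HSC-5, an established line of human skin squamous carcinoma cells, after CRISPR targeting of PRMT5 or of its partner WDR77. The members were picked by gene symbol: 9 of the 60649 genes in the count tables, namely 4 ligands (WNT5A, WNT7A, WNT7B, WNT10A), 3 antagonists (DKK1, DKK3, SFRP1) that earlier work had put forward as genes PRMT5 keeps silent, and the 2 feedback genes AXIN1 and AXIN2. RNA was sequenced in 15 libraries, 3 from each of 5 conditions. Cells labelled WT carried the empty vector (sgNeg). Cells labelled PRMT5 Knockout carried sgPRMT5-1 or sgPRMT5-2, and cells labelled WDR77 Knockout carried sgWDR77-1 or sgWDR77-2. All 15 libraries had Neomycin as their treatment label, and the study describes the infected cells as expressing Cas9. Each library held between 5146711 and 6730428 reads on genes. The study describes the replicates as biological, and p-values measure the spread between libraries as labelled.

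Wnt proteins are secreted lipid-modified ligands that bind Frizzled receptors with LRP5 or LRP6, or with ROR and RYK coreceptors. In the canonical branch they stop a destruction complex, built on AXIN1 or AXIN2 with APC and GSK3, from degrading beta-catenin, which then acts with TCF/LEF factors on target genes. DKK1 blocks LRP5 and LRP6, SFRP1 binds the ligands themselves, and DKK3 is a divergent family member whose receptor is less clear. In epidermis, Wnt signalling is best known for hair follicle formation and for maintaining basal keratinocytes. PRMT5 is an arginine methyltransferase that forms symmetric dimethylarginine on histones, splicing factors and other proteins, and WDR77 (MEP50) is its obligate partner.

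The targeted mRNAs were looked at first. PRMT5 stood at 58.9 ± 9.11 CPM (SD, n = 3) in sgNeg, at 36.8 ± 4.29 in sgPRMT5-1 and at 42.7 ± 2.85 in sgPRMT5-2, where CPM is the read count scaled to a common library size. It fell by 0.69 on the log2 scale with sgPRMT5-1 (SE 0.13, adjusted p = 0.00525) and by 0.45 with sgPRMT5-2 (SE 0.11, adjusted p = 0.00257). WDR77 fell from 119.3 ± 5.7 CPM in sgNeg to 45.4 ± 12.6 with sgWDR77-1 and 24.5 ± 2.34 with sgWDR77-2 (n = 3 each, adjusted p = 0.00141 and 1.78e-08). All libraries of a targeted condition were below all sgNeg libraries for the targeted gene. WDR77 overlaps ATP5PB on the opposite strand, which had 26046 reads over the 15 libraries against 7998 for WDR77, and the strand setting of the counting was not given. PRMT5 mRNA was lower but still present with either sgRNA. The study describes the sequenced knockouts as complete and checked by qRT-PCR. The data used here hold mRNA alone, and the study followed PRMT5 and WDR77 protein separately by western blot. On these blots, which included HSC-5, it reports that depletion of either gene lowered both proteins.

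Markers of the squamous lineage were present in every library. All 7 genes of the keratinocyte list had reads in every library, and their summed level averaged 2396 CPM in sgNeg. With sgPRMT5-1 it averaged 2246 CPM, with sgPRMT5-2 1833, with sgWDR77-1 1814 and with sgWDR77-2 2573. SFN was the most abundant of them per length, whereas KRT14, the usual basal keratin, was nearly absent at 0.632 ± 0.123 CPM in sgNeg (n = 3). KRT5, its partner keratin, fell with each sgRNA, with log2 changes of -1.28 (sgPRMT5-1), -3.53 (sgPRMT5-2), -3.99 (sgWDR77-1) and -2.83 (sgWDR77-2). It was also lower with sgPRMT5-2 than with sgPRMT5-1 (log2 -2.25, adjusted p = 8.22e-11) and higher with sgWDR77-2 than with sgWDR77-1 (log2 1.18, adjusted p = 0.00768). KRT6A, a stress keratin, and DSG3, a desmosomal cadherin, were called lower with each sgRNA as well, and TP63, a basal transcription factor, was not called in any comparison with sgNeg. SFN, an epithelial 14-3-3 protein gene, went the other way, with called log2 changes of 0.37 (sgPRMT5-1), 0.44 (sgPRMT5-2) and 0.33 (sgWDR77-2). KRT17 was called higher with sgWDR77-2 (log2 0.82, adjusted p = 1.23e-05), also against sgWDR77-1 (log2 0.82, adjusted p = 0.00892). Between the PRMT5 sgRNAs, 4 more genes of the list were lower with sgPRMT5-2: KRT6A (log2 -2.02, adjusted p = 0.00127), DSG3 (log2 -0.38, adjusted p = 0.0307), KRT17 (log2 -0.26, adjusted p = 0.00756) and TP63 (log2 -0.23, adjusted p = 0.0495). Of other lineages, the fibroblast gene COL1A2, the leukocyte gene CD3E and the melanocyte gene TYR had no read in any library. Summed fibroblast markers stood between 8.33 and 13.1 CPM on group average, with COL1A1 the most abundant, and leukocyte markers at 0.185 CPM or less on group average. The melanocyte list summed to between 3.36 and 5.76 CPM on group average, all of it from PMEL and MLANA. Endothelial markers averaged 21.4 CPM in sgNeg and 33.9 in sgWDR77-1, with CDH5 the most abundant at 18.5 and 31.7 CPM. CDH5 rose by 0.83 in sgWDR77-1 (adjusted p = 0.0271), whereas VWF, of the same list, had a log2 change of -0.43 there (adjusted p = 0.567). VWF was called lower in PRMT5KO (log2 -1.92, adjusted p = 0.0181) and with sgPRMT5-2 (log2 -2.29, adjusted p = 0.00271). PMEL was also called lower in PRMT5KO (log2 -1.13, adjusted p = 0.0391) and with sgPRMT5-2 (log2 -1.42, adjusted p = 0.00919), and COL1A1 with sgPRMT5-2 (log2 -0.66, adjusted p = 0.0142). MLANA, of the same list as PMEL, went the other way, with log2 changes of 0.19 in PRMT5KO and 0.73 with sgPRMT5-2, neither called. Its level was 0.978 ± 0.296 CPM in sgNeg and 1.65 ± 0.238 in sgPRMT5-2 (n = 3). In bulk RNA, fewer cells of a type and less RNA per cell cannot be told apart, and whether the changes in these markers had a part in the changes of the Wnt genes was not tested.

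Of the 9 members, 7 had a mean normalized count of at least 3 and were tested in each of 9 comparisons. AXIN2 and SFRP1 were below that minimum. Against sgNeg, WNT7B and DKK3 were called at an adjusted p under 0.05 in PRMT5KO (both PRMT5 sgRNAs pooled, 6 libraries), 2 of 7 members beside 17.0% of all 14071 genes tested. The same 2 members were called in WDR77KO (both WDR77 sgRNAs pooled), where 3.39% of all 14073 genes tested were called. By single sgRNA, 1 of 7 was called with sgPRMT5-1 (3.76% of all genes), 6 of 7 with sgPRMT5-2 (40.1%), and 2 of 7 each with sgWDR77-1 (2.71%) and sgWDR77-2 (4.97%). The sgPRMT5-2 count thus stands beside a background in which a large share of all genes was called. All 6 of these comparisons share the same 3 sgNeg libraries, and the pooled ones treat libraries of 2 sgRNAs as 1 group.

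**Figure D1:**
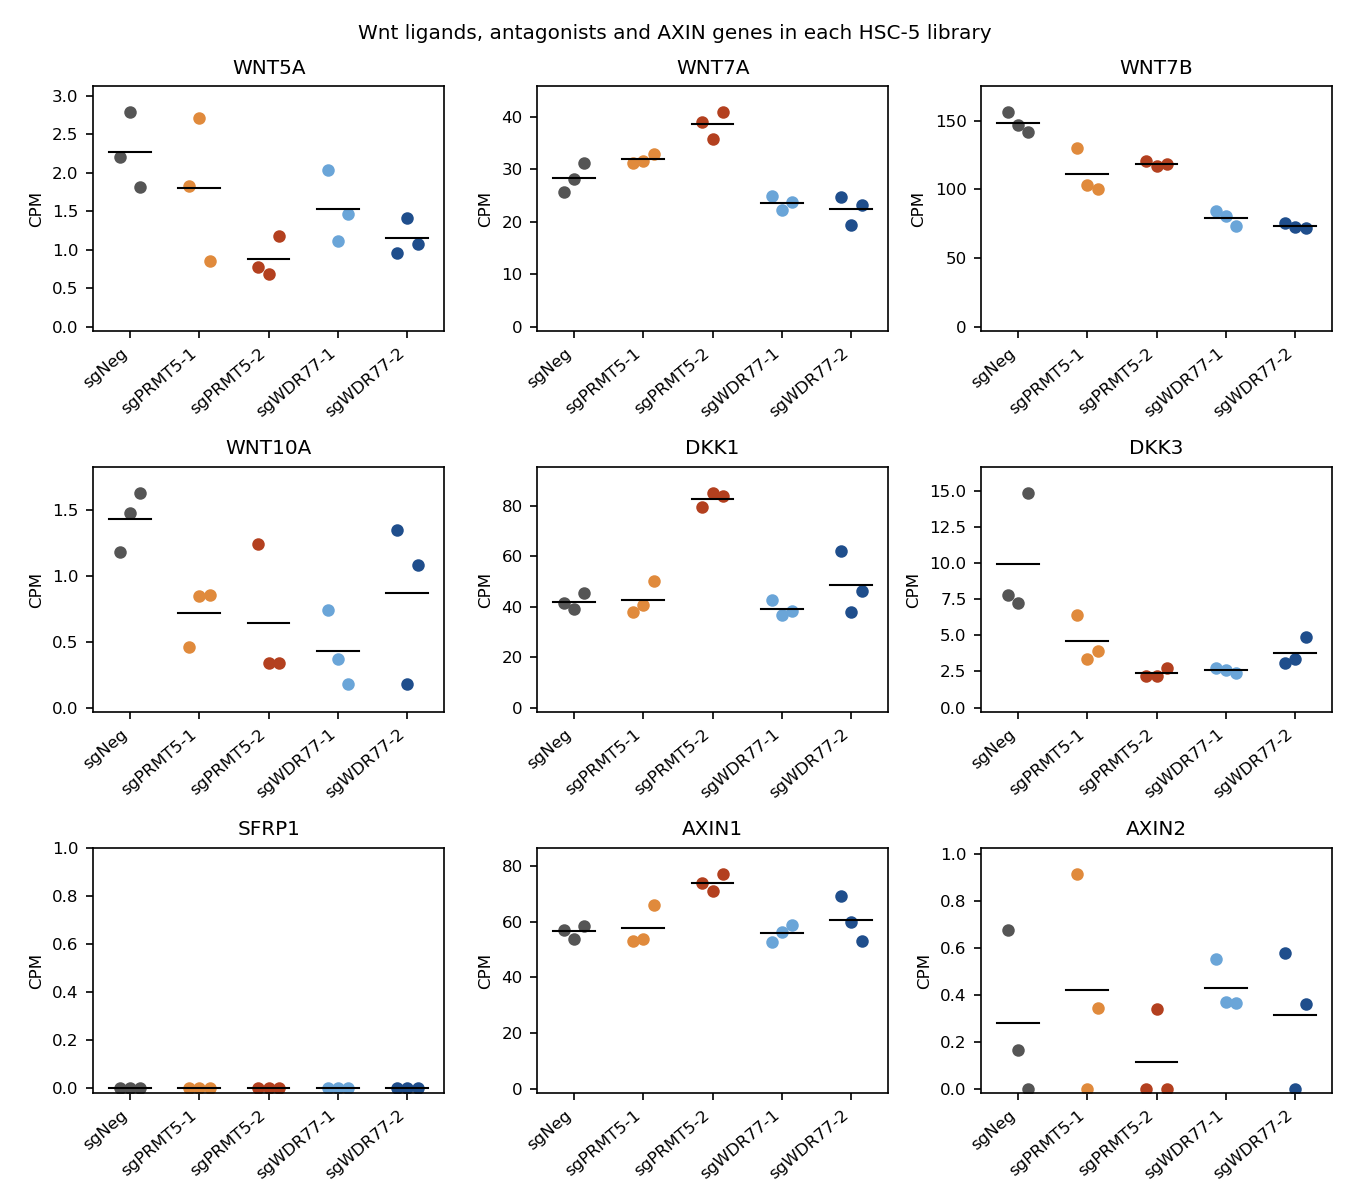
Each point is the level of a member in 1 library (CPM, linear axis, 15 libraries), and each line is the mean of the 3 libraries of a condition. WNT7B and DKK3 lie highest in sgNeg, DKK1 stands apart in sgPRMT5-2 at 82.8 CPM, and SFRP1 is at 0 in all libraries.

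WNT7B, on chromosome 22 (ENSG00000188064.10, hg38 chr22:45920366-45977162, minus strand), was the most abundant ligand per length. WNT7B encodes a ligand that can act through beta-catenin. Its level in the sgNeg libraries was 156.4, 146.9 and 141.7 CPM. In sgPRMT5-1 it was 130.2, 103.0 and 100.2 CPM, and in sgPRMT5-2 it was 120.3, 117.1 and 118.3 CPM. In sgWDR77-1 it was 83.9, 80.3 and 73.5 CPM, and in sgWDR77-2 it was 75.3, 72.6 and 72.0 CPM. All 12 knockout libraries were below all 3 sgNeg libraries, and all 6 WDR77 libraries were below all 6 PRMT5 libraries. Against sgNeg, WNT7B fell by 0.44 with sgPRMT5-1 (SE 0.10, adjusted p = 0.017), by 0.33 with sgPRMT5-2 (SE 0.07, adjusted p = 0.00109), by 0.88 with sgWDR77-1 (SE 0.11, adjusted p = 0.00209) and by 1.02 with sgWDR77-2 (SE 0.09, adjusted p = 9.43e-06). With sgRNAs pooled, WNT7B fell by 0.39 in PRMT5KO (SE 0.09, adjusted p = 0.011). In WDR77KO it fell by 0.96 (SE 0.09, adjusted p = 1.81e-05). The PRMT5KO call was lost without sgNeg replicate 1 (adjusted p = 0.0682) or without sgNeg replicate 2 (0.0521), and the sgPRMT5-1 call without sgNeg replicate 1 (0.0839) or sgPRMT5-1 replicate 2 (0.108). Over all alternatives the adjusted p ran from 0.00278 to 0.0682 in PRMT5KO and from 0.000524 to 0.108 with sgPRMT5-1. The WDR77KO call kept an adjusted p of at most 0.000528 over all alternatives run.

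The 2 knockouts were compared directly. WNT7B was higher in PRMT5KO than in WDR77KO (log2 difference 0.59, SE 0.08, adjusted p = 0.000351), and so was WNT7A (log2 difference 0.61, SE 0.10, adjusted p = 0.00178). These were 2 of 7 members called, beside 14.0% of all genes tested in this comparison. DKK1 had a log2 difference of 0.46 (adjusted p = 0.129). It was called with all 15 libraries in 1 fit (0.00195), where each sgRNA also had its own group. Without sgPRMT5-1 replicate 1 it was called too (0.0404), in a range from 0.00195 to 0.3 over the alternatives. In both WNT7 genes all 6 PRMT5 libraries were above all 6 WDR77 libraries.

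WNT7A, on chromosome 3 (ENSG00000154764.6, chr3:13816258-13880071, minus strand), is a paralogue of WNT7B with known roles in limb and skin patterning. It was at 25.7, 28.1 and 31.2 CPM in sgNeg, at 31.2, 31.6 and 32.9 CPM in sgPRMT5-1 and at 39.0, 35.7 and 41.0 CPM in sgPRMT5-2. In sgWDR77-1 it was at 24.9, 22.2 and 23.7 CPM, and in sgWDR77-2 at 24.7, 19.4 and 23.2 CPM. The order of group means ran from sgPRMT5-2 over sgPRMT5-1, sgNeg and sgWDR77-1 to sgWDR77-2, and the libraries overlapped between sgPRMT5-1 and sgNeg and between the 2 WDR77 sgRNAs. WNT7A rose by 0.44 on the log2 scale with sgPRMT5-2 (SE 0.11, adjusted p = 0.00319, 3 of 3 libraries above all sgNeg). The other comparisons with sgNeg did not pass: its log2 change was 0.16 with sgPRMT5-1 (95% interval -0.11 to 0.42), -0.23 with sgWDR77-1 (-0.55 to 0.09) and -0.35 with sgWDR77-2 (-0.65 to -0.05, adjusted p = 0.168). In WDR77KO all 6 libraries were below all sgNeg libraries, at an adjusted p of 0.252. In PRMT5KO the log2 change of WNT7A was 0.30 (0.04 to 0.55, adjusted p = 0.0971), with 5 of 6 libraries above all sgNeg libraries. It was called (0.0355) with all 15 libraries in 1 fit, where each sgRNA also had its own group.

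The promoters of WNT7A and DKK1, a ligand and an antagonist, are shown because both genes rose with sgPRMT5-2. They run from 250 bases before to 50 bases after the RefSeq start site (GRCh38.p14), 5′ to 3′ on the gene's strand, with the first transcribed base as the only capital. The WNT7A window is chr3:13880022-13880321 on the minus strand and the DKK1 window chr10:52314031-52314330 on the plus strand.
WNT7A: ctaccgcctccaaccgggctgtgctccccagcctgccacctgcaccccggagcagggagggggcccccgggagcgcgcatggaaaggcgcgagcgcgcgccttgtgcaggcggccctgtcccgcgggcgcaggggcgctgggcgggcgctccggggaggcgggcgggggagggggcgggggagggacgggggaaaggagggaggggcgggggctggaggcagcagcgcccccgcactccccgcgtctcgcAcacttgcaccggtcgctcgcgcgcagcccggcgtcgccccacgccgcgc
DKK1: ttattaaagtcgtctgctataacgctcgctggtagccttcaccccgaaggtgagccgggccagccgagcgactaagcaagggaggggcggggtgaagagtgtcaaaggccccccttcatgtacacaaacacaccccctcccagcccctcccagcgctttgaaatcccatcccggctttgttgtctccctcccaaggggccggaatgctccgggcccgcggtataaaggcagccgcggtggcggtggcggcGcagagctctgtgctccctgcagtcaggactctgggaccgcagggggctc

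Of the 9 members, 5 (WNT5A, WNT7A, WNT10A, DKK1 and AXIN1) matched the promoter table by symbol, WNT5A with 2 start sites. The letters CTTTGAT, a form of the degenerate TCF/LEF core, are in none of these 6 windows on either strand and in 2.62% of all 35116 promoters of 300 bases. Other forms of the core were not counted, and the DKK1 window shown above holds the letters CTTTGAA and CTTTGTT. The GC content of the 6 windows ran from 56.3% for a WNT5A start site to 80.3% for WNT7A, against a median of 58.7% over all promoters. The number of CpG dinucleotides was above the median of 14 in all 6 windows. It was 44 for AXIN1, 40 for WNT7A, 30 for WNT10A, 21 and 22 for the WNT5A start sites and 20 for DKK1.

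The remaining ligands among the members were scarce. WNT5A, the prototype of non-canonical signalling (chr3:55465715-55490539), had 40 reads over the 3 sgNeg libraries and 16 over the 3 sgPRMT5-2 libraries. Its sgNeg levels were 2.20, 2.79 and 1.81 CPM, and its sgPRMT5-2 levels 0.777, 0.680 and 1.18 CPM. With sgPRMT5-2 it was lower (log2 change -1.32, SE 0.45, adjusted p = 0.0249), a call that was lost without sgNeg replicate 2 (adjusted p = 0.0642), sgPRMT5-2 replicate 1 (0.0928) or sgPRMT5-2 replicate 2 (0.0978), within a range from 0.0174 to 0.0978 over all alternatives. Its log2 change was -0.45 with sgPRMT5-1, -0.53 with sgWDR77-1 and -0.93 with sgWDR77-2, none of them past the test, and each pair of neighbours in the order of conditions overlapped. With sgWDR77-2 the 95% interval did not include 0 (-1.835 to -0.017, adjusted p = 0.229), and all 3 libraries were below all sgNeg libraries. The interval also left out 0 in PRMT5KO (-1.735 to -0.047, adjusted p = 0.128) and WDR77KO (-1.457 to -0.020, adjusted p = 0.294). WNT10A, a ligand of skin appendages and teeth (chr2:218880852-218899581), had 25 reads in sgNeg and between 7 and 14 reads in each of the other conditions. Its log2 change lay between -1.64 (sgWDR77-1, SE 0.60) and -0.98 (sgPRMT5-1, SE 0.50), and no comparison with sgNeg passed the test. The 95% interval did not include 0 with sgPRMT5-2 (-2.44 to -0.08) or sgWDR77-1 (-2.94 to -0.34), where the adjusted p was 0.083 and 0.171. Nor did it in PRMT5KO (-2.03 to -0.21, adjusted p = 0.0811) or WDR77KO (-2.42 to -0.23, adjusted p = 0.2). All libraries of sgPRMT5-1 and of sgWDR77-1 were below all sgNeg libraries.

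Levels of different ligands were compared per length, as TPM (reads per base of annotated exon, scaled to the same sum in every library). Of the 19 human Wnt ligand genes, 16 had a read in at least 1 library, and WNT1, WNT8A and WNT9B had none. In sgNeg the summed ligand level was 196.7 ± 3.04 TPM (SD, n = 3), of which WNT7B made up 67.6% ± 2.57 and WNT7A 14.5% ± 1.56. WNT10B was next at 14.5 ± 1.15 TPM, followed by WNT4 at 7.02 ± 2.46 TPM. With the PRMT5 sgRNAs the sum was 152.4 ± 13.2 TPM (sgPRMT5-1) and 153.4 ± 4.51 TPM (sgPRMT5-2). With the WDR77 sgRNAs it was 122.8 ± 0.875 TPM (sgWDR77-1) and 111.8 ± 7.22 TPM (sgWDR77-2). Every knockout library was below the lowest sgNeg library at 194.4 TPM, and the WDR77 libraries, of which the highest reached 123.7 TPM, were all below the lowest PRMT5 library at 143.8 TPM. The ratio of WNT7B to WNT7A per length was 4.71 ± 0.687 in sgNeg and between 2.75 and 3.12 on average in the knockout conditions. These sums and ratios carry no test.

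**Figure D2:**
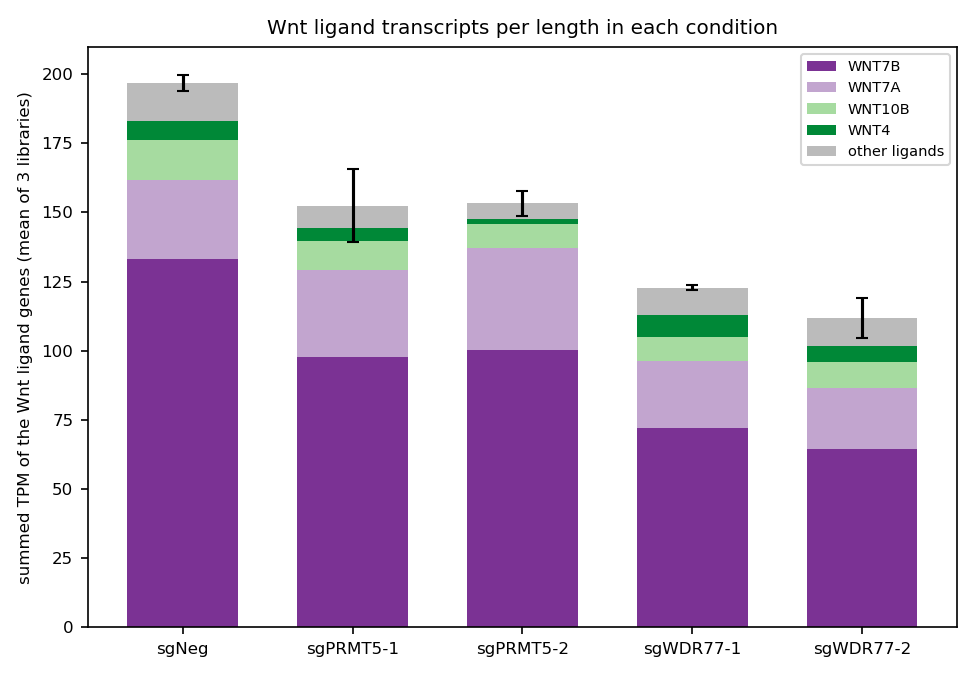
Stacked bars give the mean TPM of the Wnt ligand genes in each condition (n = 3 libraries), and the error bar is the SD of the summed level. The sum is 196.7 TPM in sgNeg and 111.8 TPM in sgWDR77-2, and WNT7B is the largest part of each bar.

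The 3 antagonists differed in level. DKK3 (ENSG00000050165.19, chr11:11956207-12009769, minus strand) was at 7.79, 7.23 and 14.9 CPM in sgNeg, with replicate 3 well above the other libraries of its group. In sgPRMT5-1 it was at 6.42, 3.40 and 3.94 CPM, and in sgPRMT5-2 at 2.18, 2.21 and 2.71 CPM. In sgWDR77-1 it was at 2.77, 2.59 and 2.37 CPM, and in sgWDR77-2 at 3.08, 3.36 and 4.86 CPM. Every knockout library was below every sgNeg library. In PRMT5KO, DKK3 fell by 1.51 on the log2 scale (SE 0.31, adjusted p = 0.00841). It fell by 1.57 in WDR77KO (SE 0.28, adjusted p = 0.0044). By sgRNA it fell by 1.96 with sgPRMT5-2 (adjusted p = 0.000156), and with sgWDR77-1 its log2 change was -1.79 (0.0261) and with sgWDR77-2 -1.32 (0.0328). With sgPRMT5-1 the log2 change was -1.06 (95% interval -1.71 to -0.42) at an adjusted p of 0.0613, which ran from 0.00823 to 0.218 over the alternatives. Neither pooled call was lost in any alternative, without sgNeg replicate 3 included, and the pooled log2 changes stayed between -1.75 and -1.23.

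The sgPRMT5-2 call of DKK3 was kept under every alternative run (adjusted p at most 0.0032). The sgWDR77-1 call was lost without sgNeg replicate 1 (adjusted p = 0.0566), sgNeg replicate 3 (0.0837) or sgWDR77-1 replicate 2 (0.0927). The sgWDR77-2 call was lost without sgNeg replicate 3 (0.0848) or without any 1 of its own replicates (0.0716, 0.13 and 0.0595 for replicates 1, 2 and 3). Over all alternatives the adjusted p ran from 0.0018 to 0.0927 with sgWDR77-1 and from 0.0127 to 0.13 with sgWDR77-2. DKK3 overlaps USP47 on the opposite strand, and with the strand setting unknown, reads of the shared stretch cannot be told apart by strand. USP47, with 7015 reads over the 15 libraries against 404 for DKK3, had a log2 change of 0.03 in PRMT5KO and -0.07 in WDR77KO, neither past the test.

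DKK1 (ENSG00000107984.10, chr10:52314281-52318042, plus strand) was far more abundant than DKK3, at 86.0 ± 6.26 TPM against 3.80 ± 1.62 TPM per length in sgNeg (n = 3). Its libraries stood at 41.3, 39.1 and 45.4 CPM in sgNeg and at 79.4, 85.2 and 83.8 CPM in sgPRMT5-2. In sgPRMT5-1 they stood at 37.9, 40.6 and 50 CPM, in sgWDR77-1 at 42.7, 36.7 and 38.1 CPM, and in sgWDR77-2 at 62.2, 37.8 and 46.1 CPM. The sgPRMT5-2 libraries were thus above all 12 others, and the libraries of the 4 other conditions overlapped. DKK1 rose 1.97-fold with sgPRMT5-2 (log2 0.98, SE 0.09, adjusted p = 7.19e-08), and its log2 change with sgPRMT5-1 was 0.00 (95% interval -0.26 to 0.27). The difference between the PRMT5 sgRNAs was itself past the test (log2 0.97, SE 0.10, adjusted p = 9.96e-07). With both sgRNAs pooled, the log2 change of 0.49 in PRMT5KO (SE 0.26) had an adjusted p of 0.201. It was called (0.0055) with all 15 libraries in 1 fit, where each sgRNA also had its own group. Over the alternatives this adjusted p ran from 0.0055 to 0.402. In WDR77KO the log2 change was 0.05 (95% interval -0.27 to 0.36).

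SFRP1 (ENSG00000104332.12, chr8:41261962-41309473) had 0 reads in all 15 libraries. A count of 0 allows up to 3 reads, which corresponds to between 0.458 and 0.578 CPM in a single library and to 0.0346 CPM over all libraries together, for counting error only. No induction of SFRP1 was detectable at this depth with any of the 4 sgRNAs, and no fold change was computed.

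AXIN1 (ENSG00000103126.15, chr16:287440-352723), the constitutive scaffold of the destruction complex, was at 57.1, 53.9 and 58.4 CPM in sgNeg and at 73.7, 70.9 and 77.2 CPM in sgPRMT5-2. It rose by 0.38 on the log2 scale with sgPRMT5-2 (SE 0.08, adjusted p = 0.00122), and all 3 libraries lay above all sgNeg libraries. Its log2 change was 0.01 with sgPRMT5-1, 0.02 with sgWDR77-1 and 0.09 with sgWDR77-2, with 95% intervals within -0.24 and 0.33. The PRMT5 sgRNAs differed in AXIN1 (log2 0.37, SE 0.10, adjusted p = 0.00943). AXIN1 and DKK1 were the 2 of 7 members called between the PRMT5 sgRNAs, beside 19.2% of all genes tested. In sgNeg (replicate 3), sgPRMT5-1 (replicate 3) and sgWDR77-2 (replicate 1), the library with the highest AXIN1 level of its condition was also the one with the highest DKK1 level. In sgPRMT5-2 (replicate 2) and sgWDR77-1 (replicate 1), the library with the highest DKK1 level had the lowest AXIN1 level of its condition. What the libraries named here share was not tested. The AXIN1 difference was not called without sgPRMT5-1 replicate 1 (adjusted p = 0.0708) or sgPRMT5-2 replicate 3 (0.0628), and its adjusted p ran from 1.04e-05 to 0.0708 over the alternatives.

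AXIN2 (ENSG00000168646.13), which is induced by beta-catenin and commonly read as a measure of canonical signalling, had 27 reads in all. The sgNeg libraries held 5 of them, those of sgPRMT5-1 8, those of sgPRMT5-2 2, those of sgWDR77-1 7 and those of sgWDR77-2 5. When genes below the minimum were tested too, the smallest adjusted p of AXIN2 over the 9 comparisons was 0.405. A difference in AXIN2 was not detectable at this depth.

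Between sgWDR77-2 and sgWDR77-1, limma voom called 0 of 7 members, beside 0.121% of all genes tested, 0 passed at an unadjusted p under 0.05, and limma-trend called 0. The largest difference among members was in WNT10A, with a log2 value of 0.67 (95% interval -1.05 to 2.38), and DKK3 differed by 0.50 (-0.23 to 1.23).

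**Figure D3:**
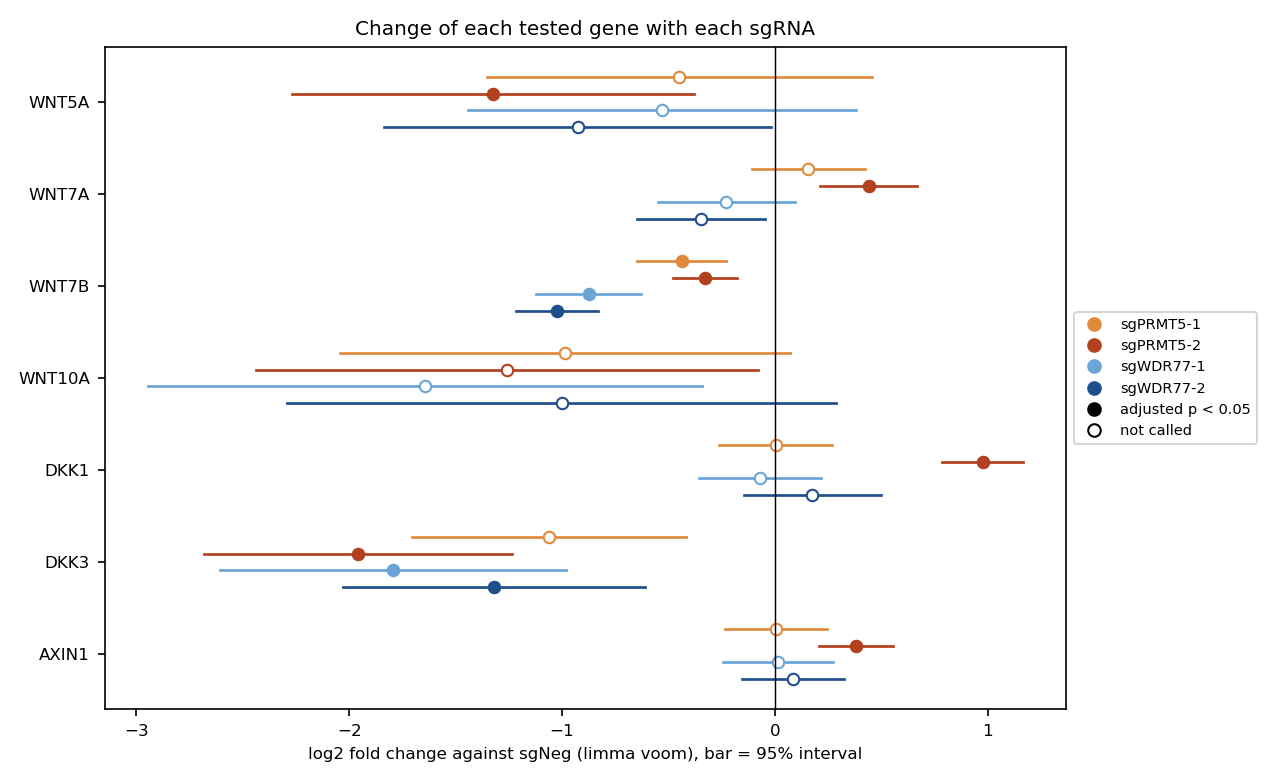
Points give the log2 fold change of each of the 7 tested members with each sgRNA against sgNeg (3 libraries against 3), and bars give the 95% interval of limma voom. Filled points passed an adjusted p of 0.05. WNT7B is filled for all 4 sgRNAs, whereas DKK1 is filled for sgPRMT5-2 alone, at 0.98.

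Set among all genes tested, the members covered a wide range. DKK3 lay at percentile 2.03 of the log2 changes in PRMT5KO and 1.06 in WDR77KO. WNT7B lay at percentile 2.91 in WDR77KO but at 19.2 in PRMT5KO. With sgPRMT5-2, DKK1 lay at percentile 96.1 and AXIN1 at 80.4. The median log2 change of all genes was 0.00 with sgPRMT5-2 and with sgPRMT5-1, 0.02 with sgWDR77-1 and 0.01 with sgWDR77-2.

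**Figure D4:**
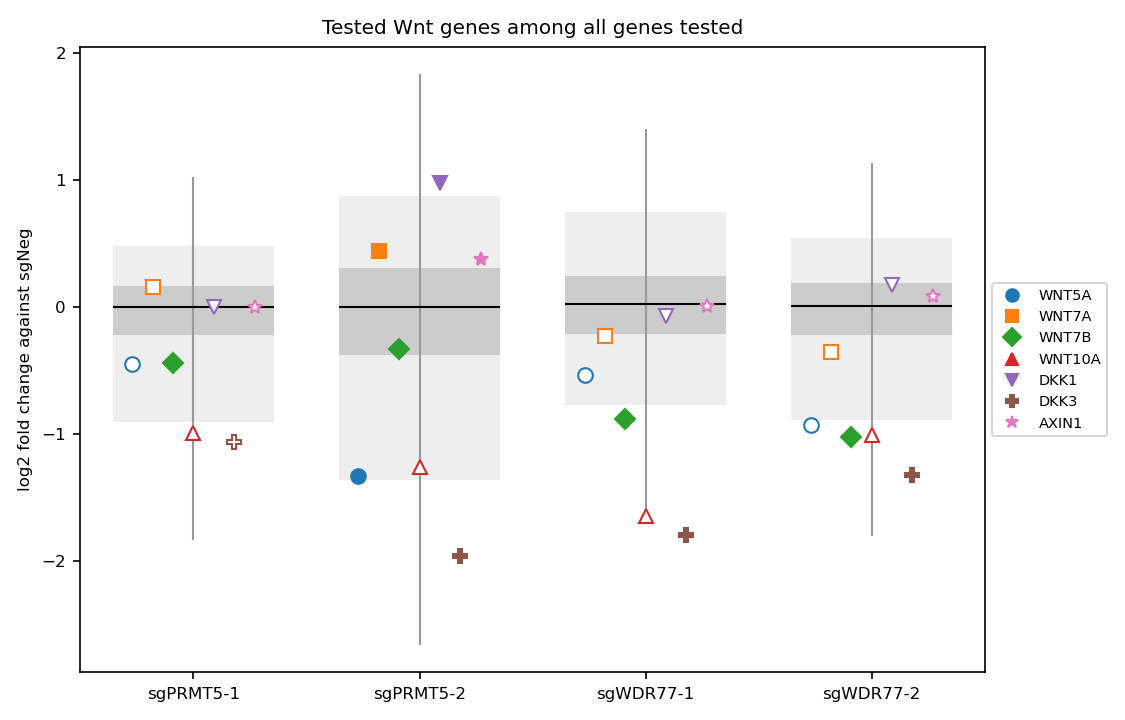
For each sgRNA, the black line is the median log2 fold change of all genes tested, the dark box spans the middle 50% of them, the light box percentiles 5 to 95 and the thin line percentiles 1 to 99. Symbols are the 7 tested members, filled where called. DKK3 lies below the light box with each sgRNA, and DKK1 lies above it with sgPRMT5-2.

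The other genes of the pathway were followed through 8 fixed lists with 87 genes, of which 58 passed the count minimum in the comparisons of PRMT5KO and WDR77KO with sgNeg. In PRMT5KO, 4 rose and 8 fell, 20.7% of those tested beside 17.0% of all genes, and their median log2 change was -0.11 against -0.01 over all genes. With sgPRMT5-2, 10 rose and 22 fell (55.2% beside 40.1%), with a median of -0.13 against 0.00. In WDR77KO 1 of 58 was called (1.72% beside 3.39%), with a median of -0.05 against 0.00, and 13 passed at an unadjusted p under 0.05, as did 2274 of all 14073 genes. With sgPRMT5-1 limma voom called 0 of 58 (3.76% of all genes) and limma-trend called 1, and 11 passed at an unadjusted p under 0.05, as did 2721 of all 14102 genes. With sgWDR77-1 both called 0 of 58 (2.71% of all genes), and 12 passed unadjusted, as did 2515 of all 14202 genes. With sgWDR77-2, 1 of 59 was called (1.69% beside 4.97%).

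Other Wnt ligands fell with sgPRMT5-2 in 4 of 6 tested genes, 66.7% beside 40.1% of all genes: WNT4 by 1.82, WNT9A by 2.07, WNT5B by 2.52 and WNT10B by 0.68 on the log2 scale (adjusted p = 0.000711, 0.000892, 0.0207 and 0.0213). WNT5B had 18 reads in sgNeg and 6 in sgPRMT5-2, all 6 in 1 library at 0.933 CPM, which is within the sgNeg range of 0.822 to 1.19 CPM, so its fitted change rests on 2 libraries at 0. WNT9A and WNT10B were also called lower in PRMT5KO by limma voom (33.3% of the 6, beside 17% of all genes), where limma-trend called 1. None of the 6 was called in WDR77KO (3.39% of all genes), where 3 passed at an unadjusted p under 0.05 and limma-trend called 0. Of the ligand processing genes, WLS, the carrier of Wnt proteins to the cell surface and the most abundant of its list at 265.8 TPM, changed by 0.04 in PRMT5KO and 0.13 in WDR77KO. Neither value passed. In each comparison with sgNeg, limma voom and limma-trend called 0 of 2 genes of this list, with 0 at an unadjusted p under 0.05. Of all genes, limma voom called from 2.71% (sgWDR77-1) to 40.1% (sgPRMT5-2), and 2 genes are too few to set beside such shares.

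Receptor genes fell in 9 and rose in 2 of 14 tested with sgPRMT5-2 (78.6% called, beside 40.1% of all genes). The Frizzled genes FZD7 and FZD4 fell by 0.98 and 1.09, the pseudokinase receptor gene PTK7 fell by 0.38, and ROR1, a receptor for WNT5A, rose by 2.03 (SE 0.28, adjusted p = 1.11e-05). ROR1 went from 2.54 ± 0.788 CPM in sgNeg to 10.3 ± 1.27 in sgPRMT5-2 (n = 3) and differed between PRMT5KO and WDR77KO by 1.84 (adjusted p = 0.00551). FZD6 was the most abundant receptor per length, at a mean of 366 TPM over all libraries. No receptor was called in WDR77KO by limma voom or limma-trend (0 of 14), where limma voom called 3.39% of all genes. At an unadjusted p under 0.05, 2 of the 14 receptors passed, as did 2274 of all 14073 genes.

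Among other antagonists, 3 of 12 genes passed the minimum. APCDD1, a membrane inhibitor of Wnt signalling, had a log2 change of -2.49 in PRMT5KO (adjusted p = 0.00716). Its change with the WDR77 sgRNAs pooled was -1.65 (adjusted p = 0.0245). By single sgRNA, limma voom called it with sgPRMT5-2 (adjusted p = 0.000527) and not with sgPRMT5-1 (0.0722), sgWDR77-1 (0.143) or sgWDR77-2 (0.0547). From this list, limma-trend called 1 gene with sgPRMT5-1, 0 with sgWDR77-1 and 1 with sgWDR77-2. APCDD1 itself went as follows in reads. The sgNeg libraries held 46 reads of it, against 15 reads (sgPRMT5-1), 3 reads (sgPRMT5-2), 14 reads (sgWDR77-1) and 11 reads (sgWDR77-2). KREMEN1, a coreceptor for DKK1 and the most abundant of the list at 25.2 TPM, fell by 1.15 with sgPRMT5-2 (adjusted p = 1.13e-06) and changed by 0.06 in WDR77KO, which did not pass. On the R-spondin axis, 4 of 5 tested genes were called with sgPRMT5-2, 80% beside 40.1% of all genes. RNF43, a ligase that removes Frizzled receptors, rose by 0.66, and LGR6, LGR4 and RSPO4 fell by 2.08, 0.23 and 1.33. LGR6 had 41 reads in sgNeg and 10 in sgPRMT5-2, and RSPO4 had 34 and 13. LGR4, an R-spondin receptor, was the most abundant of these at 51.9 TPM.

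The cytoplasmic transducers were all tested, 14 of 14, and with sgPRMT5-2 6 rose and 2 fell (57.1% called, beside 40.1% of all genes). CSNK1E, GSK3A and CSNK1D, kinases of the pathway, rose by 0.77, 0.85 and 0.29 on the log2 scale, and DVL2, a Dishevelled adaptor, fell by 0.54. CTNNB1, which encodes beta-catenin and was the most abundant transducer at 247.9 TPM, changed by 0.14 in PRMT5KO and 0.02 in WDR77KO, neither past the test. Of 9 nuclear effectors, 22.2% were called with sgPRMT5-2, below the 40.1% of all genes: TCF7L1 and PYGO1 fell by 0.82 and 1.41, and PYGO2 was the most abundant at 87.9 TPM. Of the feedback and target genes, 1 of 5 was called with sgPRMT5-2 (20%, below the 40.1% of all genes) and 1 of 6 with sgWDR77-2 (16.7% beside 4.97%). In both cases this was CCND1 (cyclin D1, the most abundant at 1143 TPM). It rose by 0.31 with sgPRMT5-2 (adjusted p = 0.000152) and fell by 0.37 with sgWDR77-2 (adjusted p = 0.0052). CCND1 differed between PRMT5KO and WDR77KO by 0.41 (SE 0.09, adjusted p = 0.00765).

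**Figure D5:**
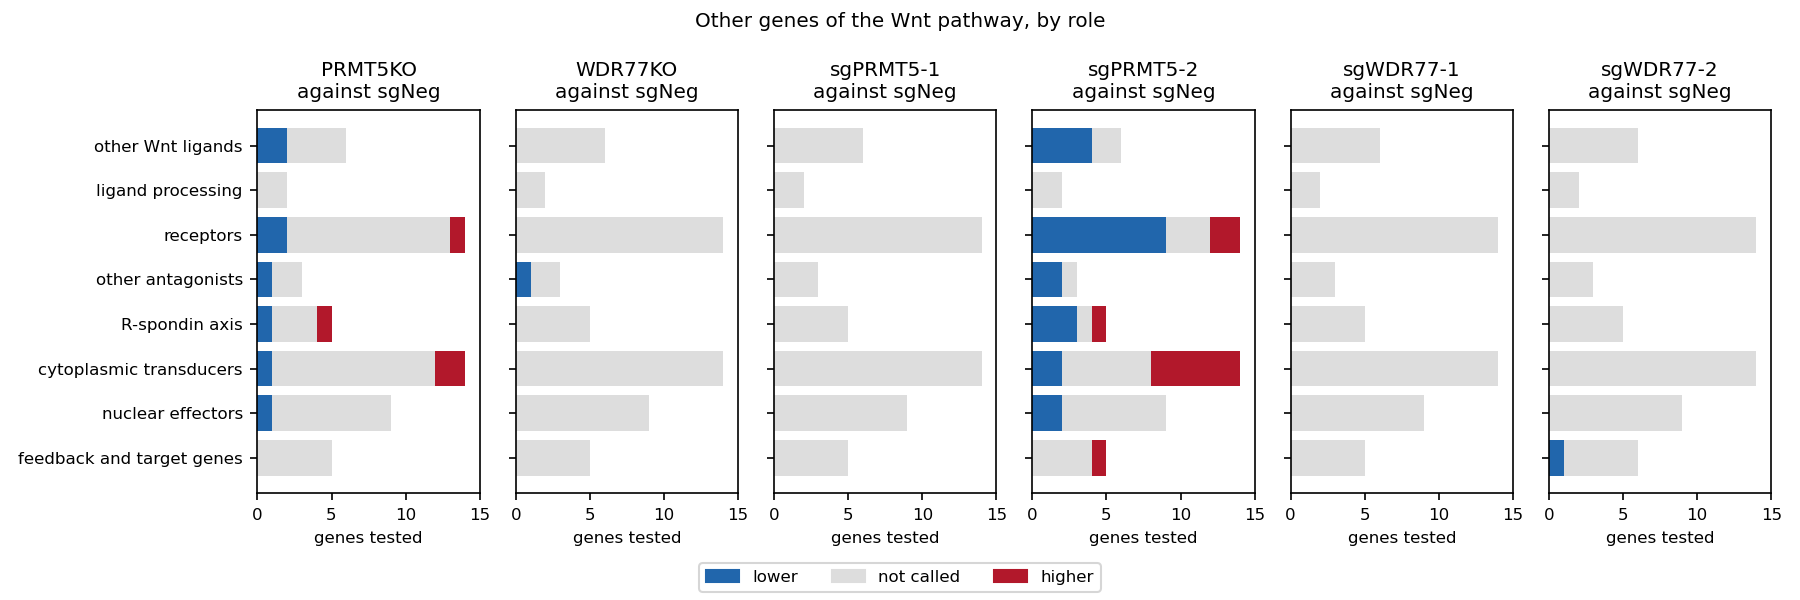
Bars count the tested genes of each fixed Wnt pathway list in the 6 comparisons with sgNeg, with those called lower in blue, those called higher in red and those not called in grey. With sgPRMT5-2, 9 of 14 receptor genes were lower and 6 of 14 cytoplasmic transducers were higher. Among all 14184 genes tested with this sgRNA, 2733 were called lower and 2960 higher (40.1% called).

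Genes with the most similar pattern were taken from 12807 genes with a mean of at least 1 CPM, by the root mean square distance over the 4 log2 changes against sgNeg. For DKK3 these were SLC52A1, SLC7A8 and NGEF, at distances of 0.20, 0.22 and 0.23. For WNT7B they were CTC-435M10.13, SLC4A11 and TINCR, at 0.08, 0.10 and 0.12. NRG1, the gene listed as ABC12-46663800M24.2 and RGMB came nearest to DKK1, at 0.06, 0.08 and 0.10. RAC2, KCNAB2 and CRCP came nearest to WNT7A, each at 0.06. TMEM116, SLCO3A1 and HCFC1R1 came nearest to WNT5A, at 0.05, 0.06 and 0.07, and ADSL, GPAT4 and SFSWAP to AXIN1, at 0.01, 0.02 and 0.03. Some of these genes lay close to the minimum of 1 CPM, such as SLC7A8 (1.01), TINCR (1.25), SLC52A1 (1.49), ABC12-46663800M24.2 (1.54) and CTC-435M10.13 (1.58). Any gene has nearest genes by construction, and whether these distances are small for such a search was not tested.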

How the data were processed

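Per the study's methods, reads were 76 nt and single-end. The authors used STAR for alignment (hg38) and HTSeq for counts per gene. The deposited values are raw whole-number counts. Strand setting and annotation release were not given in the sources used here, and the labels and the study name different TruSeq kits. Left out were listed reads outside genes (2.75% to 7.16%), reads ambiguous between genes (7.09% to 7.93%) and reads not placed uniquely (9.49% to 13.1%).

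Counts were scaled by TMM and tested with limma voom (limma 3.58.1, R 4.3.3) for genes with a mean normalized count of at least 3, with Benjamini-Hochberg adjustment over all genes tested. Each comparison was fitted on its own libraries. TPM used exon lengths of GENCODE 44, matched for 60507 of 60649 genes. Named genes were the members, the targeted genes, up to 4 called genes per list by adjusted p, each list's most abundant gene, and the 3 genes nearest to each called member, on log2 of CPM plus 0.5. The members and lists were chosen with earlier results of these data known. Alternatives changed scaling, count minimum, spread model, libraries, replicate block and single libraries. Replicates of a condition differed by more than sampling noise, with chi-square per degree of freedom from 1.55 to 17.7.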

Additional observations from a re-analysis of the deposited data

Results flagged for a closer look

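The difference between PRMT5KO and WDR77KO was itself past the test in WNT7A (log2 0.61, adjusted p = 0.00178) and in WNT7B (log2 0.59, adjusted p = 0.000351). Both were higher in 6 of 6 PRMT5 libraries than in any WDR77 library.

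The PRMT5 sgRNAs differed from each other in DKK1 (log2 0.97, adjusted p = 9.96e-07) and in AXIN1 (log2 0.37, adjusted p = 0.00943). In both, 3 of 3 sgPRMT5-2 libraries were above all sgPRMT5-1 libraries, and PRMT5 mRNA itself did not pass the test between these sgRNAs (log2 0.23, 95% interval 0.00 to 0.46, unadjusted p = 0.0471, adjusted p = 0.146).

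A single library stood apart in 2 of 16 pooled groups of 6 libraries checked. Chance gives about 1 in 20 for libraries of 1 population, a rate that need not hold here, since each group mixes 2 sgRNAs. DKK1 was at 62.2 CPM in sgWDR77-2 replicate 1, against at most 46.1 CPM in the other WDR77 libraries. AXIN2 was at 0.917 CPM in sgPRMT5-1 replicate 1, which is 6 reads, against at most 0.342 CPM in the other PRMT5 libraries.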

How the results depend on the processing

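Of 63 log2 changes (7 members in 9 comparisons), 14 crossed the threshold under at least 1 alternative, the others kept their side of it, and no called value reversed. All 15 libraries in 1 fit called 1187 genes in place of 477 in WDR77KO, 1333 in place of 385 with sgWDR77-1, 3813 in place of 1962 between PRMT5KO and WDR77KO, 1059 in place of 2690 between the PRMT5 sgRNAs and 339 in place of 17 between the WDR77 sgRNAs. This fit also gave each sgRNA its own group, so in the pooled comparisons both the libraries fitted and the grouping changed. With both changes it also called WNT7A in PRMT5KO (adjusted p = 0.0355) and DKK1 between PRMT5KO and WDR77KO (0.00195). No count minimum gave 987 in place of 530 genes with sgPRMT5-1 and 127 in place of 17 between the WDR77 sgRNAs, and library totals alone gave 11 for the latter. With the replicate block, 1427 genes were called with sgPRMT5-1 and 369 in place of 698 with sgWDR77-2. The block called DKK3 with sgPRMT5-1 (adjusted p = 0.00823), and so did limma-trend (0.0363), all 15 libraries in 1 fit (0.0449), no count minimum (0.00994) and the fit without sgNeg replicate 2 (0.0368). DKK3 was also called lower with sgPRMT5-2 than with sgPRMT5-1 (adjusted p = 0.0527 as reported) under the block (0.0392), limma-trend (0.0401), a minimum mean count of 10 (0.0436) and library totals alone (0.0478), and without sgPRMT5-1 replicate 2 (0.0399) or 3 (0.0201). WNT5A was called in PRMT5KO without sgPRMT5-1 replicate 2 (0.0489). Between the PRMT5 sgRNAs, WNT5A (0.0385) and WNT7A (0.0218) were called without sgPRMT5-1 replicate 3. What libraries of the same number shared was not given in the labels. Their deviations correlated at a median of 0.01 (-0.52 to 0.43), over 0.1 in 5 of 30 pairs, and 5 of 15 libraries correlated best with their own number. Between sgNeg and sgPRMT5-1, same-numbered pairs correlated at 0.08, 0.16 and 0.43, and pairs of different number between -0.33 and 0.21. Pairs of different number reached 0.62 (sgPRMT5-1 replicate 3 with sgWDR77-2 replicate 1) and were over 0.1 in 13 of 60. The cause of these differences was not tested.

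Without 1 library, the genes called ranged as follows, and the libraries named each moved the count by over 1.5 times. In PRMT5KO it was 483 to 3562 (any sgNeg or sgPRMT5-2 library), in WDR77KO 199 to 677 (any sgNeg library), with sgPRMT5-1 211 to 510 (sgNeg replicate 1, sgPRMT5-1 replicates 2 and 3), and with sgPRMT5-2 4675 to 5668 (none). With sgWDR77-1 it was 56 to 1003 (any sgNeg library, sgWDR77-1 replicates 1 and 2) and with sgWDR77-2 293 to 661 (any sgNeg library, sgWDR77-2 replicate 2). Between PRMT5KO and WDR77KO it was 876 to 3178 (any sgPRMT5-2 library, sgPRMT5-1 replicate 3, sgWDR77-1 replicates 2 and 3, sgWDR77-2 replicate 1), between the PRMT5 sgRNAs 1429 to 4711 (any of the 6), and between the WDR77 sgRNAs 0 to 156 (any but sgWDR77-1 replicate 3). Library totals alone moved the share of higher genes among those called from 51.3% to 34.0% in PRMT5KO, 40.4% to 27.8% with sgPRMT5-1, 52.0% to 39.5% with sgPRMT5-2 and 57.1% to 37.7% between PRMT5KO and WDR77KO. Depth limits WNT5A, WNT10A, AXIN2 and SFRP1, the members with the fewest reads.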
